A study of Homo sapiens with 4 samples.

Results

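The comparison described here asked what the AR1-651 construct still changed in prostate cancer cells once ailanthone (AIL) was present. It set the library labelled AR1-651 + AIL against the library labelled empty vector + AIL, gene by gene. Members were the genes with RPKM (reads scaled to transcript length and to library size) of 1 or more in at least 1 of these libraries, 13730 of the 19801 genes in the files. The difference is log2(RPKM + 1) in the library labelled AR1-651 + AIL minus the same in the library labelled empty vector + AIL, and 1 on this scale is a 2-fold change. Because of the added 1, changes of weakly expressed genes come out too small on this scale.

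All cells were LNCaP, an androgen-sensitive line of human prostate cancer grown in medium with serum. They were transfected for 24 h with an empty vector or with AR1-651, a truncated androgen receptor without its ligand binding domain, and for the next 12 h were kept with or without AIL, a natural compound from the tree Ailanthus altissima. Both libraries of the main comparison had received AIL, and the pair without AIL, empty vector and AR1-651, is used only beside it. Each of the 4 conditions is 1 library, so the differences below could not be set against replicates and carry no p-value. The share of cells that took up the plasmids is not given in the sources used here.

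The receptor for androgen is a transcription factor that enters the nucleus when androgen binds its ligand binding domain, and there binds DNA as a dimer at pairs of short half-sites. Without that domain the receptor can act with no hormone, as the splice variants of resistant prostate cancer do. HSP90 and its cochaperone p23, the product of PTGES3, hold the full-length receptor ready for hormone. In luminal prostate cells its best known targets are secreted kallikreins such as PSA, the product of KLK3, along with TMPRSS2 and the cochaperone gene FKBP5.

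The level of the transfected construct is not reported here, and every direction below rests on the labels alone. In what follows "higher" means higher in the library labelled AR1-651 + AIL.

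The depth was read from the smallest steps between low RPKM values, since a short gene with 1 transcript can only take whole reads. It came to about 4820000 counted reads or read pairs with empty vector + AIL and 5620000 in the library labelled AR1-651 + AIL, and to 5010000 and 5480000 in the pair without AIL. With these steps 54.0% to 59.4% of the low values lay within 0.1 of a whole read, against 13.6% to 15.8% for the median of all the steps tried. Reads per gene were estimated from this depth, and 95% intervals on a log2 ratio of RPKM (exact Clopper-Pearson, conditional on the sum) cover counting error only. Luminal markers were high in both libraries with AIL, with KRT18 at 564.3 and 473.8 RPKM, EPCAM at 99.2 and 107.8, and FOLH1 at 424.5 and 553.1. DCN, a stromal marker, was at 0 and 0.150 RPKM, PECAM1, of endothelium, at 0.300 and 0.0700, and PTPRC, a blood cell marker, at 0.710 and 0.360. COL1A1, of stroma, had 2.21 and 1.75 RPKM and ACTA2, of muscle, had 8.49 and 5.08, both lower in the library labelled AR1-651 + AIL, and their part in the results was not tested. In these bulk samples, fewer cells of a type and less RNA per cell cannot be told apart.

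The library labelled AR1-651 + AIL stood apart in base composition. Its difference from empty vector + AIL decreased as transcript GC content rose (Spearman rho = -0.63 across 13184 genes, which are not independent replicates). Against AR1-651 and against empty vector the same library gave rho = -0.42 and -0.36, while differences among the other 3 libraries gave rho between -0.05 and 0.04. The part of base composition in the results below was not tested, and the counts, the list medians and the genes past 2-fold are given as deposited and after removal of a smooth trend with GC content and transcript length. Values not said to be after the trend are as deposited.

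Sorted into sixths by GC content, the genes shifted step by step. The median difference was 0.41 in the sixth with 26.7% to 41.1% GC and -0.54 in the sixth with 60.0% to 87.9% GC. The sixths between them had medians of 0.20, 0.02, -0.13 and -0.32. In the sixth with the lowest GC, 66 genes were 2-fold higher and 15 were 2-fold lower. In the sixth with the highest GC these were 27 and 280 genes. The pair without AIL had rho = -0.03 with GC content but -0.45 with transcript length, where the pair with AIL had -0.07, so its values as deposited carry a trend of their own. It had medians of -0.39 and -0.44 in the same outer sixths, and -0.21, -0.15, -0.17 and -0.32 in the sixths between them. Its medians were thus lowest at both ends of GC content, a shape that rho does not show.

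The slope was steepest among long transcripts. It was rho = -0.38 in the sixth with the shortest transcripts and -0.79 in the sixth with the longest. Among genes with 100 or more estimated reads in the pair it was -0.70. Transcript GC carried more of it than promoter GC, since over 10379 genes with both the rho was -0.66 for the transcript and -0.21 for the promoter. The trend with GC content held 29.3% of the variance of the differences, and GC content and length together held 33.6%.

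**Figure D1:**
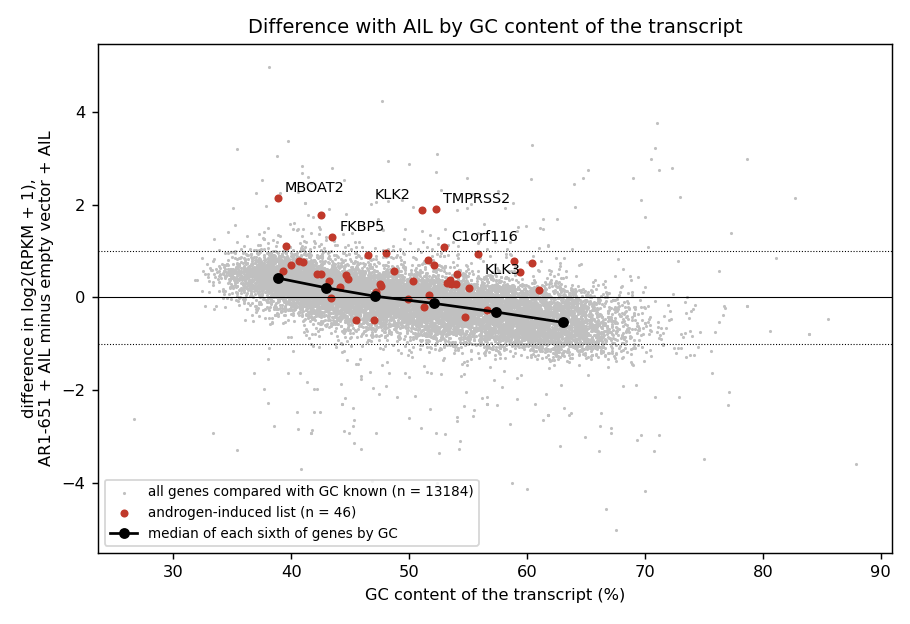
Difference in log2(RPKM + 1), AR1-651 + AIL minus empty vector + AIL, against the GC content of the transcript in percent, 1 point per gene, with the androgen-induced list in red, dotted lines at a 2-fold change and black points at the median of each sixth. The medians run from 0.41 to -0.54 with rising GC, and MBOAT2, TMPRSS2 and KLK2 stand above the genes of like GC content.

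As deposited, 214 genes were 2-fold higher (1.56% of the 13730) and 517 were 2-fold lower (3.77%). After removal of the GC and length trend, 155 of 13184 genes were higher (1.18%) and 189 were lower (1.43%). With the GC trend alone removed, 188 were higher and 167 lower, so lower genes were no longer in excess under that setting. The median difference was -0.03 as deposited, with quartiles of -0.41 and 0.28. The levels of the libraries had Pearson r = 0.956 across genes.

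Most of the genes that were 2-fold lower were rich in GC. The 354 protein-coding genes among them had a median GC content of 62.4%, and the 94 protein-coding genes that were 2-fold higher had 41.4%, beside 49.4% over all 11846 protein-coding genes compared. Of the genes with a GC value, 118 of 196 higher genes and 161 of 497 lower genes were also past 2-fold after the trend. Many calls rested on few reads. Under 20 estimated reads in the pair were found for 108 of the 196 higher genes and 152 of the 497 lower genes, against 735 of 13184 genes compared.

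Genes known to be induced by the androgen receptor were higher as a group. Of 52 listed genes, 47 were compared, 40 of them had a difference above 0, 8 were 2-fold higher and none was 2-fold lower. The background is 214 higher of 13730 genes (1.56%), with 47.7% of all genes above 0. The median of the list was 0.49, against -0.03 over all genes. After the trend it was 0.50, with 39 of 46 genes above 0, 11 of them 2-fold higher (background 1.18%) and none 2-fold lower. The counting interval lay above 0 for 32 members and below 0 for 5. The list was chosen with earlier results of these libraries known.

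The promoters of KLK3, KLK2 and MBOAT2 are shown because these genes include the best known receptor targets and the list member with the highest difference. Each runs from 250 bases before to 50 bases after the start in RefSeq (GRCh38.p14, 5′ to 3′ on the strand of the gene), at chr19:50854665-50854964 (plus), chr19:50873189-50873488 (plus) and chr2:9003635-9003934 (minus). Capitals mark the receptor half-site letters AGAACA or GGAACA, searched on both strands.
KLK3: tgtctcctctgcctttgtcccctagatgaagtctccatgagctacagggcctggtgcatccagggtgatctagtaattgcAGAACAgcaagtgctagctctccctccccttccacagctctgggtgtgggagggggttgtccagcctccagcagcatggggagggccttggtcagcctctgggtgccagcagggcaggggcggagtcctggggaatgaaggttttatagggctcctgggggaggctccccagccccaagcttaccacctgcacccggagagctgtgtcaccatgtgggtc
KLK2: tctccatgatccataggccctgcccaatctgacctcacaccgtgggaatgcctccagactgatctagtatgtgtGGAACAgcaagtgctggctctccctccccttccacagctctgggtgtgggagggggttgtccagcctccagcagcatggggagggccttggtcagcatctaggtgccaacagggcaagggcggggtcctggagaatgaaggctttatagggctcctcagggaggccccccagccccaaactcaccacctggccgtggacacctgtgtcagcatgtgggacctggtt
MBOAT2: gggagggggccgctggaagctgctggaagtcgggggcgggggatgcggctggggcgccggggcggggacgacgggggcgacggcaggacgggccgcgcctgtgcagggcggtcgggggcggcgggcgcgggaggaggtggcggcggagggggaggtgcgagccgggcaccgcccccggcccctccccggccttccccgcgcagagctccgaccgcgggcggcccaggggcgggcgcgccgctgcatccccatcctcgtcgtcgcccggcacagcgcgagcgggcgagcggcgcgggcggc

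KLK3 holds AGAACA at -170 and KLK2 holds GGAACA at -176, counted from the start of the gene. Just downstream of these letters both promoters share an unbroken run of 80 identical bases. MBOAT2 holds neither half-site in this window, whose GC content is 83.7%. Either half-site was present in 6 of 35 promoters of the androgen-induced list (17.1%) and in 1991 of all 10681 promoters of compared genes (18.6%). It was present in 29.1% of 103 promoters of genes 2-fold higher as deposited and in 17.6% of 301 promoters of genes 2-fold lower as deposited. These sets differ from all genes in GC content, and the part of base composition in these shares was not tested. The shares were not computed for genes past 2-fold after the trend. A match of these letters is a description and not a binding site.

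The secreted proteases and the phosphatase of the list had a median difference of 0.74 over 7 genes, and 1.05 after the trend. TMPRSS2, a serine protease whose promoter is often fused to ETS genes in prostate cancer, had 16.6 RPKM with empty vector + AIL and 65.1 in the library labelled AR1-651 + AIL. In the pair without AIL it had 36.7 and 275.6. The difference with AIL was 1.91, and 2.14 after the trend, with a log2 ratio of 1.97 and a counting interval of 1.77 to 2.17.

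KLK2, the kallikrein that activates PSA, had 11.6 RPKM with empty vector + AIL and 45.4 in the library labelled AR1-651 + AIL, against 14.3 and 197.5 in the pair without AIL. Its difference with AIL was 1.89, and 2.04 after the trend. KLK3 had 302.6 and 581.5 RPKM with AIL, and 286.6 and 1442 without AIL. Its difference with AIL was 0.94 as deposited, short of 2-fold, and 1.10 after the trend, with a counting interval on the log2 ratio of 0.87 to 1.02. For both genes the library labelled AR1-651 + AIL lay above each empty vector library and below AR1-651. KLK2 and KLK3 are close paralogs, and how reads that fit both were counted is not given in the sources used here.

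The other kallikreins differed less as deposited. KLK15 had 5.20 and 9.36 RPKM with AIL on about 20 and 41 estimated reads. Its difference was 0.74 as deposited and 1.05 after the trend, where it was past 2-fold. KLK4 had 41.4 and 46.0 RPKM, a difference of 0.15 and 0.49 after the trend. Its counting interval on the log2 ratio was -0.08 to 0.38. ACP3, the prostatic acid phosphatase, went the other way, with 38.1 and 26.9 RPKM. It had the lowest difference in the list, -0.49, and -0.61 after the trend. It was also lower without AIL, by a difference of -0.83.

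**Figure D2:**
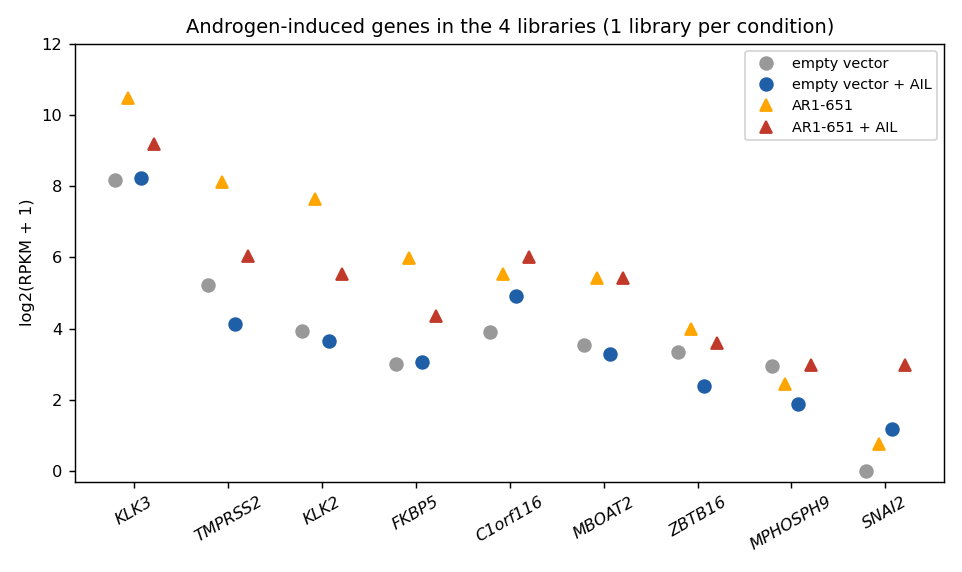
Level in log2(RPKM + 1) of the 8 androgen-induced genes that were 2-fold higher with AIL, and of KLK3, in each of the 4 libraries, 1 symbol per library and gene. Red triangles (AR1-651 + AIL) lie above blue circles (empty vector + AIL) for all 9 genes, and orange triangles (AR1-651) lie above the red ones for KLK3, TMPRSS2, KLK2, FKBP5 and ZBTB16.

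Among metabolic enzymes of the list, 9 of 10 genes were above 0, with a median of 0.33, and 0.53 after the trend. MBOAT2, which attaches acyl chains to lysophospholipids, had the highest difference of the whole list. It had 8.73 RPKM with empty vector + AIL and 42.1 in the library labelled AR1-651 + AIL, and 10.6 and 41.9 without AIL. Its level in the library labelled AR1-651 + AIL was thus close to that in the library labelled AR1-651, in contrast to KLK2 and TMPRSS2. The difference with AIL was 2.15, and 1.89 after the trend, on about 326 and 1833 estimated reads. GNMT, a methyltransferase of glycine, had 8.12 and 12.4 RPKM with AIL, and its difference of 0.56 compares with 2.50 without AIL. SORD, the sorbitol dehydrogenase, had 112.7 and 137.0 RPKM with AIL, a difference of 0.28 against 1.55 without AIL.

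Genes for chaperones and feedback regulators were mixed, with 3 of 6 above 0 and a median of 0.40, and 0.47 after the trend. FKBP5, an HSP90 cochaperone that is itself a receptor target, had 7.29 RPKM with empty vector + AIL and 19.5 in the library labelled AR1-651 + AIL. Its difference of 1.30 (1.24 after the trend) compares with 2.97 without AIL, where the levels were 7.04 and 62.1 RPKM. SGK1, a kinase of ion transport and survival signals, had 3.45 and 7.43 RPKM, a difference of 0.92. PMEPA1, which dampens TGF-beta signals, had 4.48 and 8.64 RPKM, and its difference was 0.81 as deposited and 1.11 after the trend. NDRG1 had 40.4 and 33.0 RPKM with AIL, a difference of -0.28 that was 0.08 after the trend. Without AIL it had 64.2 and 129.2 RPKM, which falls just short of 2-fold only because of the added 1. After the trend its difference without AIL was 1.37.

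Of 18 transcription factors and other regulators in the list, 17 were above 0 and 4 were 2-fold higher, with a median of 0.54, and 0.49 after the trend. C1orf116, a gene known as specifically androgen regulated, had 29.4 and 63.8 RPKM, a difference of 1.09, and 1.43 after the trend. SNAI2, the repressor Slug, had 1.28 and 6.80 RPKM, a difference of 1.77, and 1.46 after the trend, on about 12 and 77 estimated reads. ZBTB16, the factor PLZF, had 4.21 and 11.0 RPKM, a difference of 1.20, and has no GC value here. MPHOSPH9 had 2.68 and 6.87 RPKM, a difference of 1.10 that was 0.85 after the trend. RHOU, a small GTPase, had 23.5 and 46.5 RPKM, with a difference of 0.96 as deposited and 1.13 after the trend. Without AIL the difference of MPHOSPH9 was -0.51 as deposited and 0.04 after the trend.

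Membrane proteins of the list had a median difference of 0.46 over 6 genes, and 0.37 after the trend, and none was 2-fold higher as deposited. SLC45A3, the prostate transporter prostein, had 2.79 and 5.53 RPKM with AIL, a difference of 0.78 that became 1.26 after the trend. Without AIL it had 6.21 and 33.4 RPKM. LRIG1, a brake on growth factor receptors, had 10.7 and 7.68 RPKM, and its difference of -0.43 was near 0 after the trend. Of the listed genes, 5 stayed under the level for comparison in both libraries with AIL, and among them TRPM8, a cold-sensing channel, had 0.150 and 0.980 RPKM and PGC, progastricsin, had 0.450 and 0.250.

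**Figure D3:**
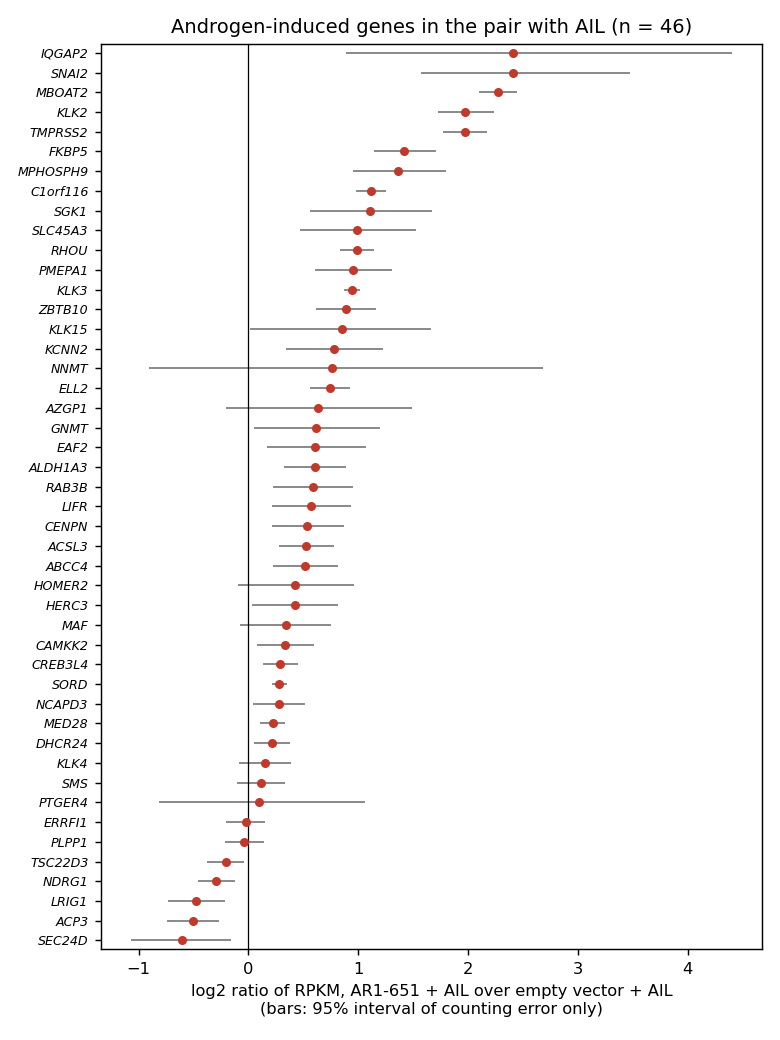
Log2 ratio of RPKM, AR1-651 + AIL over empty vector + AIL, for the 46 androgen-induced genes with a transcript length, with 95% intervals of counting error only. The intervals of 32 genes lie above 0 and those of 5 genes (TSC22D3, NDRG1, LRIG1, ACP3 and SEC24D) lie below it.

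The difference with AIL was mostly smaller than that without AIL. Over the same 47 genes the median was 0.49 with AIL and 0.81 without. After the trend it was 0.50 over 46 genes with AIL and 1.25 over 44 genes without. Without AIL, 21 of the 47 were 2-fold higher and 1 was 2-fold lower, on a background of 4.17% of 14065 genes higher and 12.1% lower. Of the 45 members compared in both pairs, 36 had the smaller difference with AIL, against 40.6% of all 13169 genes compared in both. The pairs share no library.

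Genes chosen for being 2-fold higher without AIL were next read in the pair with AIL. Of 527 such genes compared in both pairs, 452 (85.8%) had a difference above 0 with AIL, against 47.7% of all genes. Their median was 1.24 without AIL and 0.35 with AIL. The value without AIL is above 1 because the genes were chosen there, so the smaller value with AIL does not measure an effect of AIL. In all, 40 were 2-fold higher in both pairs, which is 7.59% of the 527 and 25.0% of the 160 that were higher with AIL. Over all 13169 genes, 1.21% were higher with AIL and 4.0% without. After the trend, 38 were higher in both pairs, 6.35% of 598 without AIL and 31.7% of 120 with AIL. The background there was 0.947% higher with AIL and 4.72% without. Of the 598 genes, 82.6% had a difference above 0 with AIL after the trend, against 51.6% of all genes. For genes 2-fold lower, 221 were lower in both pairs, 14.5% of 1525 without AIL and 50.1% of 441 with AIL, against 3.35% of all genes lower with AIL and 11.6% without. Of the 1525 genes, 65.5% had a difference below 0 with AIL, against 52.3% of all genes, and after the trend these shares were 57.3% and 48.4%. Those lower in both pairs became 38 genes after the trend, 9.84% of 386 and 29.5% of 129. Of the 527 genes higher without AIL, 36 were 2-fold lower with AIL, against 3.35% of all genes. Of the 1525 lower without AIL, 27 were 2-fold higher with AIL, against 1.21% of all genes. Across genes the differences had Spearman rho = 0.38 as deposited and 0.41 after the trend.

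Among genes with 100 or more estimated reads in the pair, a limit chosen after the data were seen, the calls after the trend were few. Of 10050 such genes, 23 were 2-fold higher (0.229%) and 16 were 2-fold lower (0.159%). The androgen-induced list held 9 of the 23 higher genes, out of its 40 members with that many reads, and none of the 16 lower genes. These 9 were MBOAT2, TMPRSS2, KLK2, KLK3, C1orf116, SLC45A3, FKBP5, RHOU and PMEPA1. In the pair without AIL, 15 of the 23 were also 2-fold higher after the trend, against 4.81% of 10006 genes, and all 9 list members were among them.

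**Figure D4:**
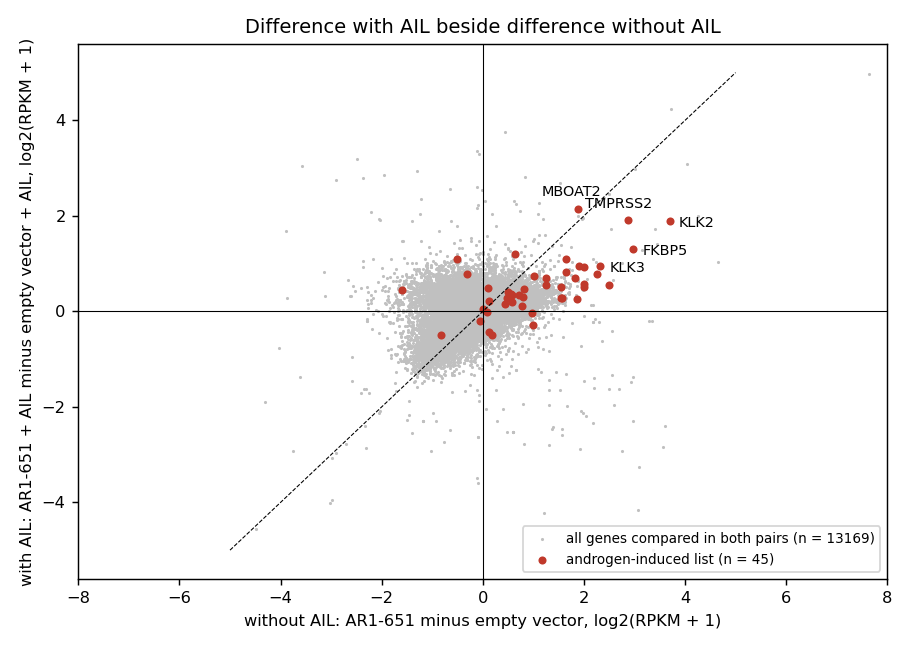
Difference with AIL (vertical) against difference without AIL (horizontal), both in log2(RPKM + 1), for the 13169 genes compared in both pairs, with 45 androgen-induced genes in red and a dashed line where the differences are equal. Most red points on the right lie between 0 and the dashed line, and MBOAT2 lies just above the line.

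Outside the list, the most distinct higher genes with many reads were few. CROT, a peroxisomal enzyme that moves medium-chain acyl groups onto carnitine, had 4.46 RPKM with empty vector + AIL and 15.6 in the library labelled AR1-651 + AIL, and 7.04 and 16.4 without AIL. Its difference was 1.60 with AIL, 1.27 after the trend and 1.11 without AIL. NPPC, which encodes a natriuretic peptide precursor, had 1.23 and 10.1 RPKM with AIL on about 6 and 60 estimated reads, and 0.870 and 1.87 without AIL. Its difference with AIL was 2.32, and 2.36 after the trend. FMC1-LUC7L2 had 8.90 and 38.8 RPKM on about 71 and 362 estimated reads, a difference of 2.01 and 1.87 after the trend. CKLF-CMTM1 had 1.57 and 17.7 RPKM on about 4 and 58 estimated reads, a difference of 2.86 and 2.81 after the trend. BLOC1S5-TXNDC5 had 0 and 6.65 RPKM with AIL on about 0 and 113 estimated reads, a difference of 2.94 and 3.02 after the trend. Without AIL its difference was -1.30, and -1.07 after the trend. FMC1-LUC7L2, CKLF-CMTM1 and BLOC1S5-TXNDC5 are readthrough genes that share exons with their neighbours, so their values are uncertain. CROT and BLOC1S5-TXNDC5 were named after their values were seen.

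Some other genes higher as deposited were poor in GC and fell short of 2-fold after the trend. Of all the higher genes with a GC value, 118 of 196 stayed past 2-fold after it. TFPI, an inhibitor of coagulation, had 18.7 and 51.0 RPKM, a difference of 1.40 and 0.75 after the trend. CLDN8, a tight junction claudin, had 15.9 and 42.6 RPKM, a difference of 1.37 and 0.77 after the trend. NRIP1, a corepressor of nuclear receptors, had 10.6 and 26.7 RPKM, a difference of 1.26 and 0.95 after the trend, and -0.85 without AIL, which was -0.11 after the trend. STEAP1, a prostate surface protein, had 206.1 and 420.8 RPKM, a difference of 1.03 and 0.65 after the trend. These 4 were chosen after their values were seen. Their GC content was 37.2% to 42.5%.

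Among the lower genes with many reads were a pair of related RNA-binding proteins. ZFP36L2, which binds AU-rich elements and promotes mRNA decay, had 27.1 RPKM with empty vector + AIL and 7.65 in the library labelled AR1-651 + AIL, and 18.7 and 3.15 without AIL. Its difference was -1.70 with AIL, -1.35 after the trend and -2.25 without AIL. Its paralog ZFP36L1 had 29.3 and 9.11 RPKM with AIL and 11.1 and 3.91 without AIL, with a difference of -1.58, and -1.31 after the trend. Both genes were lowest in the library labelled AR1-651.

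ZNF703, a transcriptional corepressor, had 75.0 and 22.9 RPKM with AIL, a difference of -1.67 that was -0.98 after the trend. CMIP had 17.1 and 5.53 RPKM, a difference of -1.47 and -1.08 after the trend. PITX1, a homeobox factor, had 89.5 and 32.3 RPKM, and its difference of -1.44 became -0.81 after the trend. H3-3A, a gene of the histone variant H3.3, had 47.5 and 23.1 RPKM, with a difference of -1.01 and -1.32 after the trend, and 0.37 without AIL. ZFP36L1, CMIP, PITX1 and H3-3A were chosen after their values were seen.

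Genes repressed by the receptor gave no common direction. Of 8 compared, 5 were above 0 and none was past 2-fold (background 1.56% higher and 3.77% lower), with a median of 0.22, and -0.07 after the trend. CAMK2N1, an inhibitor of CaM kinase II, was the lowest, with 301.6 and 164.8 RPKM and a difference of -0.87. UGT2B15, which glucuronidates androgens, was the highest, with 1.44 and 3.44 RPKM and a difference of 0.86, and 0.35 after the trend. Without AIL, UGT2B15 had a difference of -1.30.

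Factors that work with the receptor mostly had differences below 0 as deposited. Of 13 compared, 2 were above 0 and 2 were 2-fold lower (background 3.77%), with a median of -0.68. After the trend the median was -0.28, with 5 of 13 above 0 and none past 2-fold. GATA2, a lineage factor that opens chromatin, had 124.5 and 59.6 RPKM, a difference of -1.05 and -0.51 after the trend. FOXA1, the pioneer factor of luminal cells, had 138.5 and 86.1 RPKM, a difference of -0.68 and -0.52 after the trend. HOXB13, a prostate homeobox factor, had 172.7 and 97.2 RPKM and a difference of -0.82 and -0.39 after the trend. Without AIL the list had a median of -0.97 as deposited and -0.28 after the trend, where 3 of 13 were above 0, beside medians of -0.28 and -0.01 over all genes. SPDEF, a luminal ETS factor, had 43.4 and 31.4 RPKM with AIL and 84.6 and 152.9 without AIL.

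The HSP90 machinery leaned upwards within 2-fold. Of 18 compared, 14 were above 0 and none was past 2-fold, with a median of 0.20 as deposited and 0.22 after the trend, against 0.59 without AIL. HSPE1, a mitochondrial co-chaperonin, had 119.8 and 195.3 RPKM, a difference of 0.70. HSP90AA1, the inducible HSP90, had 236.8 and 370.4 RPKM, a difference of 0.64 and 0.58 after the trend, and -0.32 without AIL, which was -0.04 after the trend. PTGES3, which encodes p23, had 96.8 and 84.2 RPKM, a difference of -0.20, and -0.59 after the trend. It was also lower without AIL, with 119.7 and 83.5 RPKM.

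The stress lists stayed near the median of all genes. In the integrated stress and unfolded protein responses, 12 of 21 genes were above 0, and the median of 0.09 became -0.02 after the trend (-0.02 to 0.11 over all settings tried). ATF4, their common transcription factor, had 703.4 and 727.1 RPKM, a difference of 0.05, and SESN2, a stress-induced brake on mTORC1, had 34.2 and 15.7 RPKM, a difference of -1.08 that was -0.56 after the trend. DNAJB9, a chaperone of the endoplasmic reticulum, had 8.56 and 14.6 RPKM, a difference of 0.71 and 0.36 after the trend. For p53 targets 6 of 12 were above 0 with a median of -0.01 (-0.09 to 0.05 over all settings tried), and CDKN1A, the p21 inhibitor of cyclin-dependent kinases, had 551.0 and 360.6 RPKM, a difference of -0.61 and -0.33 after the trend. RRM2B, a subunit of ribonucleotide reductase, had 12.3 and 22.0 RPKM, a difference of 0.78 and 0.36 after the trend.

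Mitosis genes had a median of 0.22, and 0.09 after the trend, with 16 of 22 above 0 and none past 2-fold. Their median without AIL was -0.33, and -0.16 after the trend. CENPF, a kinetochore protein, had 2.58 and 4.91 RPKM, a difference of 0.72 and 0.59 after the trend, while FOXM1, a transcription factor of these genes, had 7.71 and 3.87 RPKM, a difference of -0.84 and -0.50 after the trend. Genes of the G1/S transition had a median of -0.11 with 7 of 24 above 0, and -0.09 with 10 above 0 after the trend. MCM5, of the replicative helicase, had 13.9 and 7.82 RPKM, a difference of -0.76 and -0.35 after the trend. CDK2 had 13.6 and 18.5 RPKM, the highest of the list at 0.42 and 0.45 after the trend. Interferon-stimulated genes had a median of -0.12 with 6 of 16 above 0, and -0.20 after the trend. They ran from -0.73 for IRF7 to 0.64 for IFIT2, which after the trend had -0.17 and 0.44.

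In cholesterol and fatty acid synthesis, 8 of 17 genes were above 0 and 2 were 2-fold lower (background 3.77%), with a median of -0.45 that became -0.11 after the trend. SREBF1, the transcription factor of lipid synthesis, had 46.1 and 19.1 RPKM, a difference of -1.23 and -0.50 after the trend. FASN, the fatty acid synthase, had 80.7 and 37.3 RPKM, a difference of -1.09 and -0.28 after the trend. IDI1, of the isoprenoid pathway, had 53.6 and 79.5 RPKM, a difference of 0.56 and 0.12 after the trend. Immediate early genes had a median of -0.51 with 2 of 9 above 0, and -0.01 after the trend. JUND had 303.7 and 171.8 RPKM, a difference of -0.82 that was -0.25 after the trend.

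Ribosomal protein genes, which include the genes with the highest RPKM, were higher by little. Of 86 compared, 69 were above 0 and none was past 2-fold, with a median of 0.27, and 0.18 after the trend, against 0.83 without AIL, and 0.72 there after the trend. RPL41 had 4598 and 5482 RPKM, a difference of 0.25, and RPS2 had 3968 and 4485 RPKM, a difference of 0.18. RPLP0, of the ribosomal stalk, had 1238 and 957.7 RPKM, the lowest of the list at -0.37. Mitochondrial ribosome genes had a median of 0.15 with 62 of 82 above 0, and nuclear genes of the respiratory chain had 0.17 with 60 of 84 above 0. After the trend both medians were 0.12. In the respiratory chain list, the readthrough gene ATP5MF-PTCD1 was 2-fold higher, with 0 and 4.85 RPKM, and UQCRHL was 2-fold lower, with 2.90 and 0 RPKM, and both were also past 2-fold after the trend.

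The ZNF zinc finger genes had a median of 0.20 with 308 of 479 above 0, and 0.08 after the trend. Of these genes, 11 were 2-fold lower, a smaller share than the background of 3.77%, and none was 2-fold higher. ZNF638 had 15.4 and 31.2 RPKM, a difference of 0.98 and 0.76 after the trend. Replication-dependent histone genes had 3 of 51 higher and 3 lower (background 1.56% and 3.77%), with 15 of the 51 under 20 estimated reads. Among these calls, H2AC12, H2AC14, H4C3, H2AC7 and H3C2 rested on about 3 to 9 estimated reads in the pair, and H2BC26 on about 197. The median of the histone list was 0.04 and 0.11 after the trend (-0.08 to 0.25 over all settings tried).

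Small RNA genes gave the most extreme values and the fewest reads. Of 105 small nucleolar and Cajal body RNA genes compared, 38 were 2-fold higher and 39 were 2-fold lower (background 1.56% and 3.77%). Under 20 estimated reads were found for 92 of the 105. Their median was -0.16, and -0.17 after the trend, with 29 higher and 36 lower of 97 genes (background 1.18% and 1.43%). Of 127 microRNA genes, 31 were higher and 58 lower (background 1.56% and 3.77%), and 96 had under 20 estimated reads. Their median was -0.52, and -0.34 after the trend, with 35 higher and 55 lower of 124 genes (background 1.18% and 1.43%). SNORD58B, a guide of ribosomal RNA methylation, was an exception with about 10 and 84 estimated reads, and had 31.0 and 225.9 RPKM with AIL and 139.0 and 249.7 without AIL, a difference with AIL of 2.82 and 2.35 after the trend. MIR1184-1, MIR1184-2 and MIR1184-3 had the same values in every library (44.2 and 8.20 RPKM with AIL, a difference of -2.30 and -2.12 after the trend), and these near-identical copies cannot be told apart.

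**Figure D5:**
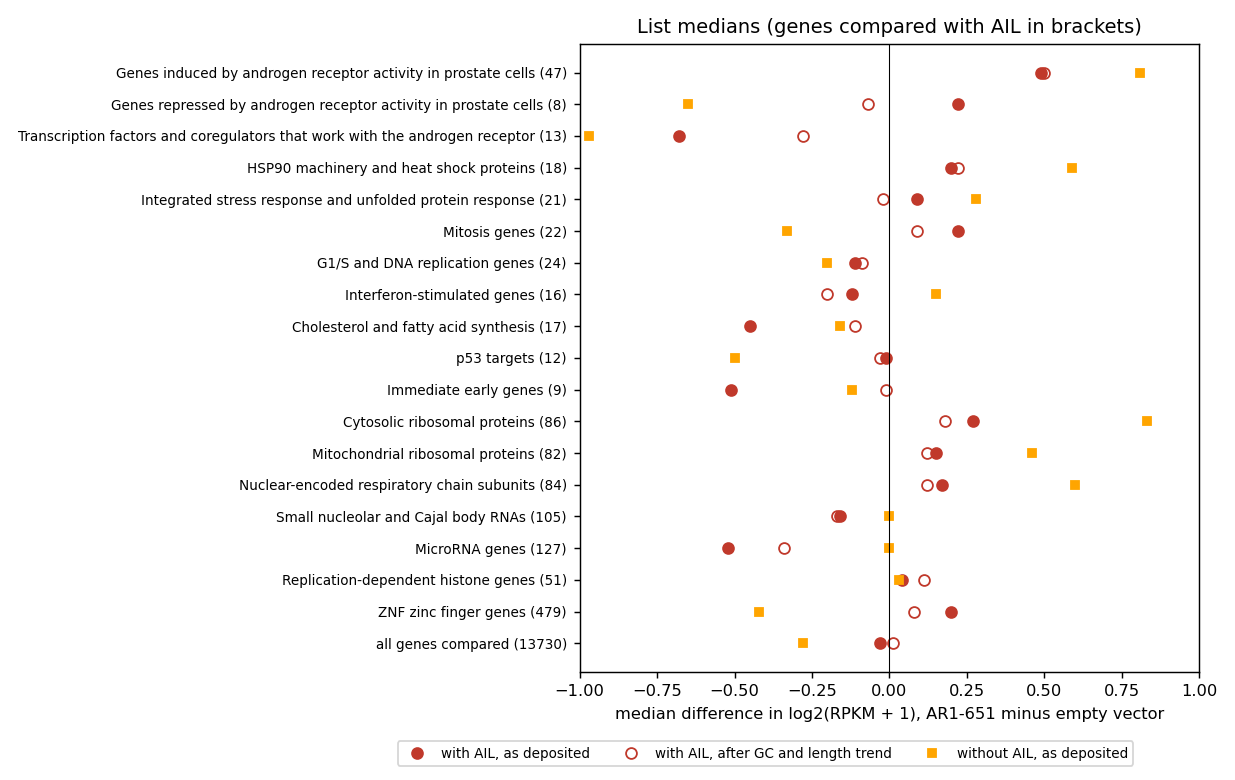
Median difference in log2(RPKM + 1) of each gene list with AIL as deposited (filled red circles), with AIL after the GC and length trend (open circles) and without AIL as deposited (orange squares), with the number of genes compared with AIL in brackets. The androgen-induced list has 0.49, 0.50 and 0.81, while the receptor's partner factors move from -0.68 to -0.28 and the immediate early genes from -0.51 to -0.01 when the trend is removed.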

How the data were processed

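LNCaP RNA was sequenced by the authors on the Illumina HiSeq2000 from 1 library for each of 4 conditions, and RPKM per gene was deposited by the authors, rounded to 2 decimals. The submitters' processing notes name BWA 0.7.10-r789 and build hg19, and the counting tool is not given in the sources used here. The protocol names both a ribosomal RNA depletion kit and enrichment with oligo(dT), and does not say which was applied. RPKM divides by the reads of the library, so genes that take more reads lower the others. Groups came from the sample labels.

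Differences of log2(RPKM + 1) were computed for genes with RPKM of 1 or more in at least 1 library of the pair, and called at 2-fold. Symbols came from RefSeq by gene identifier (19703 of 19801 matched). GC content and transcript length are medians over GENCODE release 29 transcripts matched by RefSeq identifier, known for 96.0% of the genes compared, and no coordinates of hg19 were used. The trend was fitted by ranks of GC content and of length with terms up to degree 3, and the residual also centres the differences. Depth came from genes with 1 transcript of 400 to 1500 nt. The limits of 20 and 100 estimated reads were chosen after seeing the data.

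Named genes were the 4 highest and 4 lowest members and every member past 2-fold of each listed pathway, the 3 highest and 3 lowest of lists made by symbol pattern, the 10 largest rises and falls as deposited and after the trend (RPKM of 5 or more in 1 library and 1 or more in both), and the 5 genes with the highest RPKM. Others in the text, such as further list members and markers, stand for their role. The members and lists were chosen with earlier results of these data known. A few genes met by these choices are left out of the text. Calculations were checked on simulated data and run with pandas 2.3.3, SciPy 1.17.1 and NumPy 2.4.6 under Python 3.11.15.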

Additional observations from a re-analysis of the deposited data

Results flagged for a closer look

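A few genes named by the rule were past 2-fold in one direction with AIL and in the other direction without AIL. With 1 library per condition these contrasts of direction were not tested. CKLF-CMTM1, a readthrough gene, had a difference of 2.86 with AIL and -1.95 without AIL. MIR2110 had 1.69 with AIL and -3.89 without AIL, and SNORD45C had 3.20 and -2.49. MIR4751 had -5.01 with AIL and 3.36 without AIL, SNORD60 had -1.98 and 1.66, and SNORD96A had -1.64 and 1.31. The 5 small RNA genes rested on about 4 to 30 estimated reads in the pair with AIL.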

How the results depend on the processing

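No paired analysis was possible because each condition has 1 library, and none could be left out. The median of the androgen-induced genes stayed between 0.43 and 0.56 and no gene named by the rule changed its side of 0 after a 2-fold call under any of the 13 alternatives. The counts of genes moved more. Of genes 2-fold higher (214), there were 432 with a pseudocount of 0.1, 100 with RPKM of 5 or more, 86 with RPKM of 1 or more in both libraries and 1109 at 1.5-fold. Of genes 2-fold lower (517), there were 1070 with a pseudocount of 0.1, 956 scaled to the sum of RPKM, 869 without ribosomal protein genes, 2247 at 1.5-fold, 167 after the GC trend, 189 after the GC and length trend and 174 after the medians of 20 GC bins. Higher in both pairs (40) were 22 genes with RPKM of 5 or more, 16 with 1 or more in both and 196 at 1.5-fold. Lower in both pairs (221) were 529 genes with a pseudocount of 0.1, 71 with median-ratio scaling, 630 scaled to the sum, 494 without ribosomal protein genes, 1528 at 1.5-fold, 25 after the GC trend, 38 after GC and length and 25 after GC bins. Androgen-induced genes past the threshold rose from 8 to 18 at 1.5-fold. Of the alternatives added after seeing the data, 100 or more estimated reads left 51 higher, 279 lower and 9 higher in both, and protein-coding genes alone 94 higher and 18 higher in both. Beyond fewer genes or another threshold, the cause was not tested. List medians changed sign under some setting for the androgen-repressed, stress response, p53, histone, luminal marker, microRNA and small nucleolar lists. At this depth, 735 of the genes compared had under 20 estimated reads in the pair.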
